A study of Mus musculus with 15 samples.

Results

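The TNF superfamily genes of a mouse spleen expression panel were followed through radiation injury, burn and vesicle treatment. They comprised every gene in the table whose symbol begins with *Tnfrsf*, *Tnfsf* or *Traf*, together with *Tnf*, *Cd40*, *Cd40lg*, *Cd27* and *Ltbr*. The rule uses gene names only. The rule found 28 of the 561 genes, made up of 12 receptors, 10 ligands and 6 TRAF adaptors. *Cd70*, which the rule also names, had no row in the table.

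Ligands of this family are mostly trimeric proteins on the cell surface, some of which are also shed, and they act by clustering their receptors. Most of the receptors here lack a death domain and pass the signal to TRAF proteins, which lead to NF-kB and MAP kinase pathways. In the spleen, BAFF and its receptors keep B cells alive, CD40 and its ligand carry T cell help to B cells, CD27 and OX40 costimulate T cells, and lymphotoxin signalling through LTbR maintains the stroma and the marginal zone.

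The panel was the nCounter Mouse Immunology Panel, run on spleen RNA of 15 samples, in which colour-coded barcodes on hybridised probes are counted without amplification. All mice were female C57BL/6J animals of 6 to 8 weeks, with no transgene or deletion described. Sham mice had neither radiation nor burn. By the burn methods, sham groups were otherwise handled in the same way as burned mice. Whether this covers the present Sham samples is not stated. WBIR mice were exposed over the whole body to 9 Gy from a caesium source. RCI mice received a contact burn of 20% of the body surface and then the same radiation dose. With the burn they also had anaesthesia, shaving, morphine by injection and in the water, and Lactated Ringer's solution. These are not described for WBIR mice, so they cannot be told apart from the burn. If Sham mice had this procedure without the burn, comparisons of WBIR and WBIR+MSC-EVs with Sham also differ in it. WBIR+MSC-EVs and RCI+MSC-EVs mice were injured likewise and were injected intravenously, 72 hours after injury, with extracellular vesicles from cultured C57BL/6J bone marrow mesenchymal stem cells. Spleens were taken 48 hours after that injection. Untreated mice received vehicle, which the labels name as PBS in the RCI group alone. Each of the 5 groups held 3 samples, and it is not stated whether these are 3 mice, so the p-values measure the spread between these samples. Red blood cells were lysed before RNA was extracted.

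The samples held between 90127 and 598872 counts, fewest in WBIR+MSC-EVs replicate 1. Markers of several cell types moved with irradiation. All 8 B cell markers fell (median log2 fold change -4.23) and their summed scaled counts were 17728 to 19774 in Sham and 755 to 1645 in irradiated samples. All 8 T cell markers fell too (median -2.27), from sums of 9288 to 21312 in Sham to 2169 to 4785. All 7 macrophage markers rose (median 3.89), from 1865 to 3025 in Sham to 11256 to 39487. All 5 tested neutrophil markers fell (median -2.92), with sums of 7845 to 44392 in Sham and 1452 to 10085 in irradiated samples. Of 7 tested stromal and endothelial markers 3 rose and 0 fell (median 1.18), with sums of 2648 to 3580 in Sham and 3377 to 7945 in irradiated samples. In bulk RNA, fewer cells of a type and less RNA per cell cannot be told apart. Sham replicate 2 stood apart from the other Sham samples, with the highest T cell and neutrophil sums and the lowest macrophage sum of the group. It also had fewer counts, 179472 against 471966 and 509621 in the other Sham samples. RCI replicate 3 had the highest macrophage sum and the lowest B cell sum of all samples. Of that macrophage sum of 39487, *Marco* alone gave 30247. Among RCI samples, replicate 3 had the lowest *Csf1r*, *Cd163* and *Fcgr1* and the highest *Cd14*. Counts below are scaled to the geometric mean of 14 genes taken as reference genes from knowledge of the panel, since the table does not mark them, fold changes are given as log2 with standard errors (SE), and a call means an adjusted p under 0.05 (edgeR quasi-likelihood F-test, Benjamini-Hochberg over 426 tested genes). Every comparison with Sham shares the same 3 Sham samples.

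Of the 28 members, 22 had a mean of at least 20 counts and were tested. When the mean of the 4 irradiated groups was compared with Sham, 3 members rose and 13 fell. Over all 426 tested genes 26.1% rose and 48.6% fell, against 13.6% and 59.1% of the tested members. The median log2 fold change was -1.13 over the members and -0.55 over all tested genes. Scaling by TMM, which assumes that most genes do not change, raised the median of all genes by 0.50 and gave 152 higher and 166 lower genes in place of 111 and 207, while 3 members stayed higher and 12 lower. The groups did not overlap for 3 members that were higher and 11 that were lower in irradiated samples, and 53.3% of all tested genes were apart in this way in either direction.

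**Figure D1:**
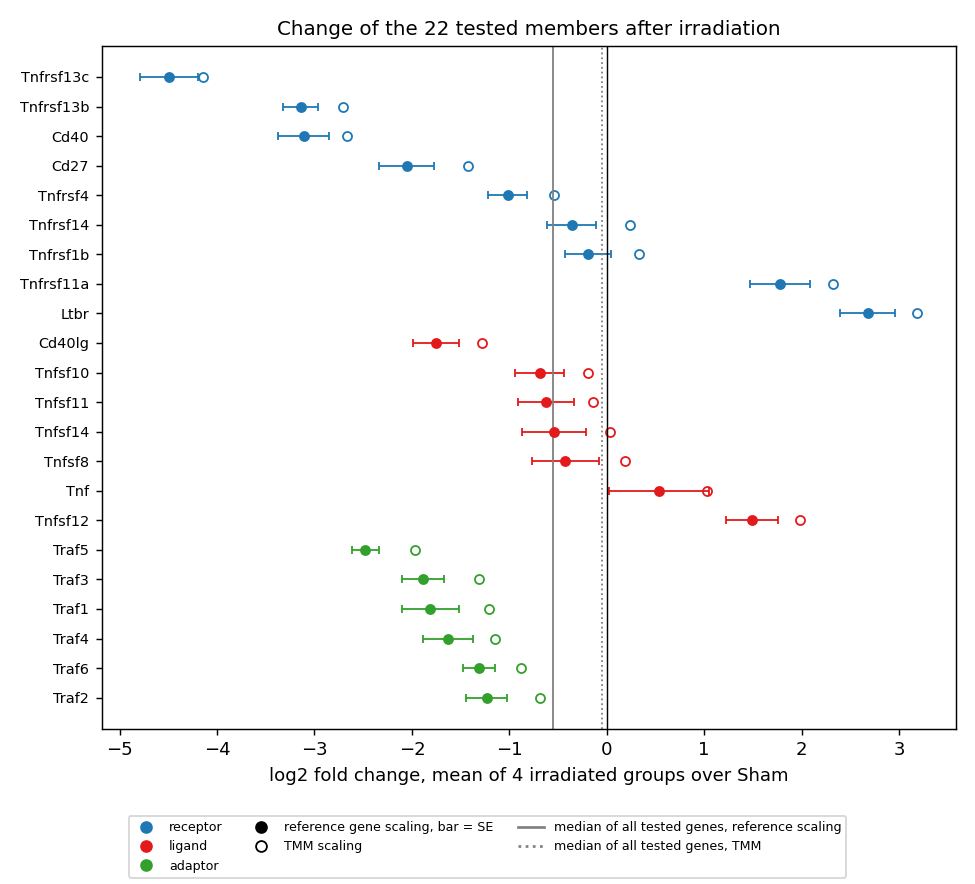
Log2 fold change of each tested member in the mean of the 4 irradiated groups over Sham (x axis), with filled points and SE bars for scaling to reference genes, open points for TMM scaling, and solid and dotted grey lines at the median of all tested genes under each (-0.55 and -0.05). *Ltbr*, *Tnfrsf11a* and *Tnfsf12* lie to the right under both, and all 6 TRAF genes lie to the left.

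The counts of calls were similar in each injured group. Against Sham, WBIR gave 3 members higher and 13 lower, where 21.6% and 46.9% of all tested genes were higher and lower. WBIR+MSC-EVs gave 3 and 12 (22.8% and 45.1% of all tested genes). RCI gave 4 and 13 (26.5% and 43% of all tested genes). RCI+MSC-EVs gave 3 and 12 (23.9% and 41.3% of all tested genes). With TMM scaling these comparisons gave 132 to 151 genes higher and 147 to 150 lower, in place of 92 to 113 and 176 to 200, and 3 or 4 members higher and 11 or 12 lower. Across these 4 comparisons 12 of the 22 members were lower in each and 3 were higher in each, where 38% and 19% of all tested genes were, and the same 15 were called in the mean of the irradiated groups under all 4 scalings tried. The 12 were *Tnfrsf13c*, *Tnfrsf13b*, *Cd40*, *Cd27*, *Tnfrsf4*, *Cd40lg* and the 6 TRAF genes, and the 3 were *Ltbr*, *Tnfrsf11a* and *Tnfsf12*. The call for *Tnfrsf4* in RCI+MSC-EVs was close to the threshold (log2 fold change -0.63 ± 0.26 SE, edgeR adjusted p = 0.0489) and passed in 9 of 26 alternative settings. Outside these 15, *Tnfsf11* was called lower in WBIR (-0.95, edgeR adjusted p = 0.0354), *Tnfsf10* lower in RCI (-0.90, edgeR adjusted p = 0.026) and *Tnf* higher in RCI. The *Tnfsf11* call was lost in 9 of 25 alternative settings, among them TMM (-0.32, adjusted p = 0.357), DESeq2 (adjusted p = 0.0501) and leaving out Sham replicate 2 (-0.72, edgeR adjusted p = 0.101). The *Tnfsf10* call was lost in 7 of 26, among them TMM (-0.43, adjusted p = 0.162) and leaving out RCI replicate 3 (-0.70, edgeR adjusted p = 0.0937), Sham replicate 2 (-0.72) or Sham replicate 3 (-0.77).

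The receptors of B cells fell the furthest. *Tnfrsf13c* encodes the BAFF receptor, which mature B cells need to survive. Its scaled counts were 687, 169.5 and 355 in Sham, against a lowest of 11.1, a median of 17.4 and a highest of 24.6 over the 12 irradiated samples. Every irradiated sample lay far below every Sham sample, and Sham replicate 2 was the lowest of its group. In log2 terms *Tnfrsf13c* fell by 4.49 (SE 0.29, edgeR adjusted p = 8.4e-09), and the fold was 22.5. Without Sham replicate 1 the fall was -3.87.

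*Tnfrsf13b* encodes TACI, a second receptor for BAFF and also for APRIL, found on marginal zone B cells and plasma cells. It was counted at 515, 371 and 309.5 in Sham and at 32.6 to 64.6 in irradiated samples (median 43.6). The groups did not overlap and *Tnfrsf13b* fell by 3.14 (SE 0.18, edgeR adjusted p = 2.0e-09). *Cd40*, the receptor through which B cells and antigen-presenting cells receive T cell help, was counted at 294, 215 and 169 in Sham and at 17.3 to 61.4 in irradiated samples (median 23.4). Its highest irradiated sample was WBIR+MSC-EVs replicate 1, the sample with the fewest counts, and the groups did not overlap. *Cd40* fell by 3.11 (SE 0.26, edgeR adjusted p = 8.8e-08).

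Costimulatory receptors of T cells fell by less. *Cd27*, carried by most naive T cells, was counted at 450.3, 1257 and 359 in Sham, at 126, 99.0 and 129 in WBIR and at 208, 228 and 112 in RCI. With vesicles it was counted at 139, 112 and 143 in WBIR+MSC-EVs and at 275, 297 and 219.8 in RCI+MSC-EVs. All 12 irradiated values were below the 3 Sham values, of which Sham replicate 2 was the highest. The fall of *Cd27* was -2.05 (SE 0.28, edgeR adjusted p = 1.5e-05), and without Sham replicate 2 it was -1.30 (edgeR adjusted p = 1.4e-04). *Tnfrsf4* encodes OX40, which activated and regulatory T cells carry, and it was counted at 102, 143 and 160.3 in Sham and at 48.5 to 97.2 in irradiated samples (median 63.3). Those ranges came close without meeting, and *Tnfrsf4* fell by 1.02 (SE 0.20, edgeR adjusted p = 2.9e-04).

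By contrast, 2 receptors rose. *Ltbr* encodes the lymphotoxin beta receptor, which stromal and myeloid cells carry and lymphocytes generally lack. It was counted at 30.9, 70.0 and 47.2 in Sham, at 139, 241 and 247 in WBIR, at 236, 299.7 and 221 in WBIR+MSC-EVs, at 405, 452 and 388 in RCI and at 400.5, 462 and 326 in RCI+MSC-EVs. No irradiated sample reached down to Sham, and all 6 burned samples were above the 6 irradiated samples without burn. *Ltbr* rose by 2.68 (SE 0.28, edgeR adjusted p = 1.0e-06), or 6.40-fold. *Tnfrsf11a* encodes RANK, the receptor on osteoclast precursors, macrophages and dendritic cells. Its counts were 28.2, 83.4 and 43.9 in Sham and 98.9 to 236 in irradiated samples (median 179). Sham replicate 2 came nearest to the irradiated range without entering it, and *Tnfrsf11a* rose by 1.78 (SE 0.31, edgeR adjusted p = 1.3e-04).

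**Figure D2:**
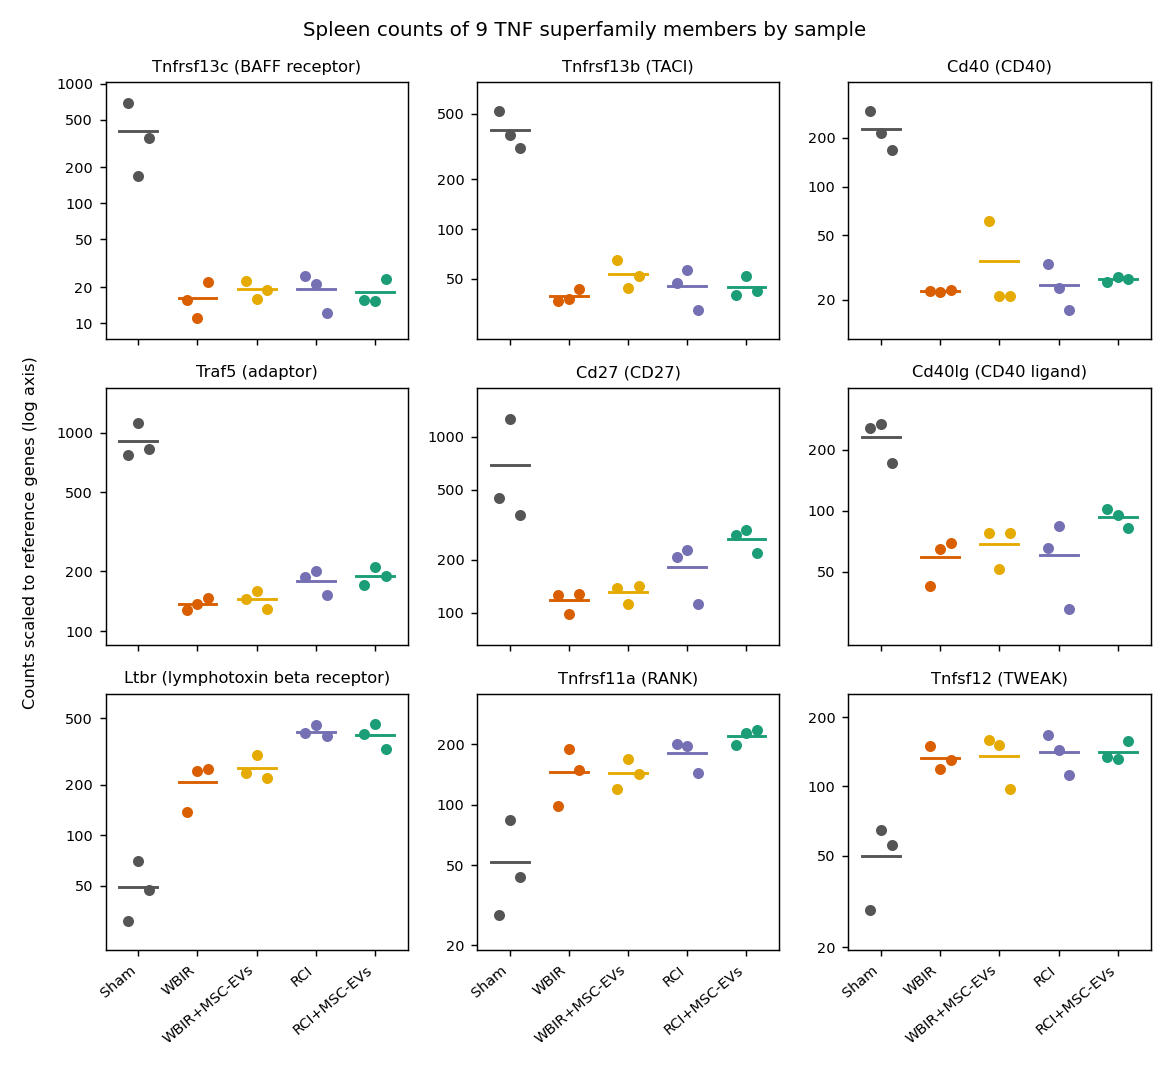
Counts scaled to reference genes (y axis, log scale) of 9 members in each of the 15 samples, by group, with a line at each group mean. In the top and middle rows every irradiated sample lies below Sham, with *Tnfrsf13c* at 169.5 to 687 in Sham and 11.1 to 24.6 after irradiation, and in the bottom row every irradiated sample lies above Sham.

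The remaining tested receptors overlapped between the groups. *Tnfrsf14* encodes HVEM, which binds LIGHT and BTLA, and was counted at 614, 1270.1 and 407 in Sham and at 414 to 789 in irradiated samples (log2 fold change -0.36 ± 0.25 SE, edgeR adjusted p = 0.208). *Tnfrsf1b* encodes TNFR2, the TNF receptor of lymphocytes and myeloid cells, and was counted at 330.3, 474 and 245 in Sham and at 211 to 418 in irradiated samples (-0.19 ± 0.24 SE, edgeR adjusted p = 0.467). Neither passed in any of the 4 comparisons with Sham, and both had the opposite sign under TMM (0.24 and 0.33). Without Sham replicate 3, *Tnfrsf14* passed as lower (-0.67, edgeR adjusted p = 0.0203), and without Sham replicate 2 its sign turned (0.21, edgeR adjusted p = 0.352), as did that of *Tnfrsf1b* (0.08, edgeR adjusted p = 0.779).

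The promoters of the 2 receptors that fell furthest and the 2 that rose are shown because the pairs moved in opposite directions. RefSeq promoter windows of build GRCm38.p6, of 300 bases around each gene start, held 27 entries for 25 of the 28 members. The motif, a loose form of the NF-kB site, was GGG followed by 5 bases of any kind and CC, searched on both strands. Its matches are in capitals, and overlapping matches run together.
Tnfrsf13c, chr15:82224331-82224630, minus strand: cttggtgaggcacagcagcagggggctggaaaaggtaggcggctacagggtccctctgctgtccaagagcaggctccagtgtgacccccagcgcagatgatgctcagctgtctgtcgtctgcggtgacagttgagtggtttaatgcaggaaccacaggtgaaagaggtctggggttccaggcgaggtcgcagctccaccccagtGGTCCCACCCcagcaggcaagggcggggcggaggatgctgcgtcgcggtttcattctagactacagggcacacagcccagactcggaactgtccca
Tnfrsf13b, chr11:61126505-61126804, plus strand: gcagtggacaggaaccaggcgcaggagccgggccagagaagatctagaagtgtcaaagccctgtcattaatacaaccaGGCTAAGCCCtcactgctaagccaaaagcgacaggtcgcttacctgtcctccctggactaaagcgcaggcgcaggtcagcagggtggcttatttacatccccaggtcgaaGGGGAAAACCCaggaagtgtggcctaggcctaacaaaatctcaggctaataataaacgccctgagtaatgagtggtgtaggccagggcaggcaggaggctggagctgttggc
Ltbr, chr6:125313836-125314135, minus strand: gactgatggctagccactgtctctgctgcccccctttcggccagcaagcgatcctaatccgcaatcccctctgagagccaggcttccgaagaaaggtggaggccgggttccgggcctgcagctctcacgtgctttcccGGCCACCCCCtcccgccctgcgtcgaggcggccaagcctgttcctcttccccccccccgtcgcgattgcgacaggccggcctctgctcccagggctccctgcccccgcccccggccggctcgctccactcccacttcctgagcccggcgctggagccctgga
Tnfrsf11a, chr1:105780473-105780772, plus strand: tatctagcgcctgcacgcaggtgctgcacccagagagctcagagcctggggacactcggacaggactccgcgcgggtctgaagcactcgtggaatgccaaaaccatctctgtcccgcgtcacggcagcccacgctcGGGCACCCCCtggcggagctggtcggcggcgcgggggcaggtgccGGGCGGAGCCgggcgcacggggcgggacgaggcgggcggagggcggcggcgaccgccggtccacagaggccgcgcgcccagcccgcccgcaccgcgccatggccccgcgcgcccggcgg

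The window of *Tnfrsf13b* held 3 matches, that of *Tnfrsf11a* 2, and those of *Tnfrsf13c* and *Ltbr* 1 each. The motif occurred in 17 of the 27 member windows (63%) and in 50.8% of all 32851 windows of the same length. Receptors that fell and receptors that rose both held it.

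Among the ligands, *Cd40lg* showed the largest fall. It encodes the CD40 ligand of activated helper T cells, and was counted at 257, 269 and 172 in Sham, at 42.4, 64.5 and 69.4 in WBIR and at 65.0, 84.3 and 32.6 in RCI. It was counted at 77.6, 51.2 and 77.3 in WBIR+MSC-EVs and at 102, 94.7 and 81.8 in RCI+MSC-EVs. No irradiated sample reached the lowest Sham value, and *Cd40lg* fell by 1.75 (SE 0.24, edgeR adjusted p = 1.3e-05). *Tnfsf12* encodes TWEAK, a cytokine made largely by monocytes and macrophages, and was the only tested ligand to rise in all 4 comparisons with Sham. Its counts were 29.1, 64.6 and 55.7 in Sham and 97.2 to 167 in irradiated samples (median 139), without overlap. *Tnfsf12* rose by 1.49 (SE 0.26, edgeR adjusted p = 1.4e-04).

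The other ligands moved less and their calls were less stable. *Tnfsf10*, the death ligand TRAIL, was counted at 73.7, 148 and 136 in Sham and at 46.1 to 115 in irradiated samples, which overlapped. It passed as lower in the mean of the irradiated groups (-0.69 ± 0.25 SE, edgeR adjusted p = 0.0222), but not without Sham replicate 2 (-0.51, adjusted p = 0.115 in edgeR), without Sham replicate 3 (-0.57, adjusted p = 0.110) or with TMM (-0.19, adjusted p = 0.406). *Tnfsf11*, which encodes RANKL, was counted at 30.9, 43.1 and 21.1 in Sham and at 12.2 to 27.8 in irradiated samples (-0.62 ± 0.28 SE, edgeR adjusted p = 0.0596). Its groups overlapped, and without Sham replicate 3 it passed (-0.86, edgeR adjusted p = 0.0223), while without Sham replicate 2 it was -0.39 (edgeR adjusted p = 0.245).

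*Tnfsf14* encodes LIGHT, a ligand of activated T cells and dendritic cells for HVEM and LTbR, and was counted at 84.6, 186 and 62.4 in Sham and at 42.3 to 155 in irradiated samples (-0.54 ± 0.33 SE, edgeR adjusted p = 0.152). *Tnfsf8*, which encodes CD30 ligand, was counted at 66.4, 248 and 82.7 in Sham and at 52.3 to 148 in irradiated samples (-0.43 ± 0.34 SE, edgeR adjusted p = 0.271). Both overlapped with Sham, where replicate 2 was the highest, and both had the opposite sign under TMM (0.03 and 0.19). Without Sham replicate 3, *Tnfsf14* passed as lower (-0.84, edgeR adjusted p = 0.0490). Without Sham replicate 2 the values were 0.01 for *Tnfsf14* and 0.35 for *Tnfsf8*, and neither passed.

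*Tnf*, the founding cytokine of the family, did not pass over the 4 groups together (0.54 ± 0.51 SE, edgeR adjusted p = 0.353). It was counted at 54.6, 40.4 and 15.2 in Sham, at 28.3, 15.6 and 32.4 in WBIR and at 32.3, 27.8 and 36.2 in WBIR+MSC-EVs. It was counted at 47.3, 52.7 and 264 in RCI and at 62.7, 72.0 and 95.8 in RCI+MSC-EVs. The value in RCI replicate 3 stood far above all others. This sample also had the highest macrophage marker sum, most of it from *Marco*, while *Csf1r*, *Cd163* and *Fcgr1* were the lowest among RCI samples. The part of these markers in the result was not tested. *Tnf* passed as higher in RCI against Sham (1.75 ± 0.62 SE, edgeR adjusted p = 0.0206), but not without RCI replicate 3 (0.46, edgeR adjusted p = 0.386) or without Sham replicate 3 (1.35, edgeR adjusted p = 0.0845).

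All 6 TRAF genes were called lower in each of the 4 comparisons with Sham, as were 38% of all tested genes. *Traf5*, an adaptor of CD27, CD40 and OX40, was counted at 771, 1114 and 827 in Sham and at 129 to 211 in irradiated samples (median 156). These groups lay well apart, and *Traf5* fell by 2.48 (SE 0.14, edgeR adjusted p = 1.9e-09). *Traf3*, which restrains the alternative NF-kB pathway below the BAFF receptor and CD40, was counted at 325, 651 and 309 in Sham and at 79.0 to 161 in irradiated samples. It fell by 1.89 (SE 0.22, edgeR adjusted p = 2.4e-06) with no overlap. *Traf1*, an adaptor whose own transcription NF-kB drives, was counted at 314, 614 and 161 in Sham and at 57.8 to 155 in irradiated samples. Its groups barely cleared each other, and *Traf1* fell by 1.81 (SE 0.29, edgeR adjusted p = 6.2e-05), or by 1.21 without Sham replicate 2, the highest of its group.

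*Traf4*, the least understood of these adaptors in lymphocytes, was counted at 83.7, 113 and 85.2 in Sham and at 16.7 to 51.7 in irradiated samples, and fell by 1.63 (SE 0.26, edgeR adjusted p = 5.3e-05). *Traf6*, which serves CD40, RANK and the Toll-like receptors, was counted at 287, 315 and 510.3 in Sham and at 119.6 to 172 in irradiated samples, and fell by 1.31 (SE 0.16, edgeR adjusted p = 5.5e-06). Neither gene overlapped between the groups. *Traf2*, the ubiquitin ligase adaptor of TNFR2 and CD40, was counted at 195, 288 and 143 in Sham and at 69.3 to 143 in irradiated samples, and fell by 1.23 (SE 0.21, edgeR adjusted p = 9.8e-05). Here RCI replicate 3 (143.3) reached just above Sham replicate 3 (142.5), so that *Traf2* was the only TRAF gene whose groups overlapped.

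Each member was then scaled to the geometric mean of the markers of a cell type, to ask whether it moved by more or less than that mean. Relative to the 8 B cell markers, 21 members were higher and 0 lower, and so were 93.4% and 1.41% of all tested genes. *Tnfrsf13c* was the only member not called (-0.42 ± 0.34 SE, edgeR adjusted p = 0.239), and without Sham replicate 2 it passed as lower (-0.76, edgeR adjusted p = 0.0287), while without Sham replicate 1 its sign turned (0.08, edgeR adjusted p = 0.831). *Tnfrsf13b* (0.93 ± 0.30 SE, edgeR adjusted p = 0.00565) and *Cd40* (0.95 ± 0.35 SE, edgeR adjusted p = 0.0133) fell by less than the mean of the B cell markers. Single B cell markers ranged from -5.25 to -1.60 against Sham. For *Cd40* the call was lost without Sham replicate 3 (0.82, edgeR adjusted p = 0.0733).

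Relative to the 8 T cell markers, 12 members were higher and 3 lower (72.1% and 9.62% of all tested genes). The 3 lower were *Tnfrsf13c*, *Tnfrsf13b* and *Cd40*. The 7 not called were *Cd27* (0.26 ± 0.16 SE, edgeR adjusted p = 0.149), *Cd40lg* (0.34 ± 0.23 SE, adjusted p = 0.195) and the TRAF genes other than *Traf2*, between -0.36 for *Traf5* and 0.66 for *Traf6*. Sham replicate 2 had the highest T cell marker sum, and without it *Cd27* passed as higher (0.46, edgeR adjusted p = 0.0187) and *Traf5* as lower (-0.55, edgeR adjusted p = 0.0175). *Traf6* passed as higher in 5 of 23 alternative settings. These were DESeq2, limma at pseudocounts of 1 and 10, the replicate block, and leaving out Sham replicate 3 (1.33, edgeR adjusted p = 4.4e-04).

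Relative to the 7 macrophage markers, 0 members were higher and 21 lower (1.41% and 90.8% of all tested genes). *Ltbr* was the only member not called (-0.47 ± 0.38 SE, edgeR adjusted p = 0.242), and its value turned positive without Sham replicate 2 (0.23, edgeR adjusted p = 0.493). *Tnfrsf11a* (-1.44 ± 0.41 SE, edgeR adjusted p = 0.00271) and *Tnfsf12* (-1.56 ± 0.43 SE, edgeR adjusted p = 0.00203) rose by less than the mean of the macrophage markers. Single macrophage markers ranged from 1.52 to 4.10 against Sham. Without Sham replicate 2, *Tnfrsf11a* was not called (-0.50, edgeR adjusted p = 0.154). A value that misses the threshold does not show that a member moved together with the markers.

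**Figure D3:**
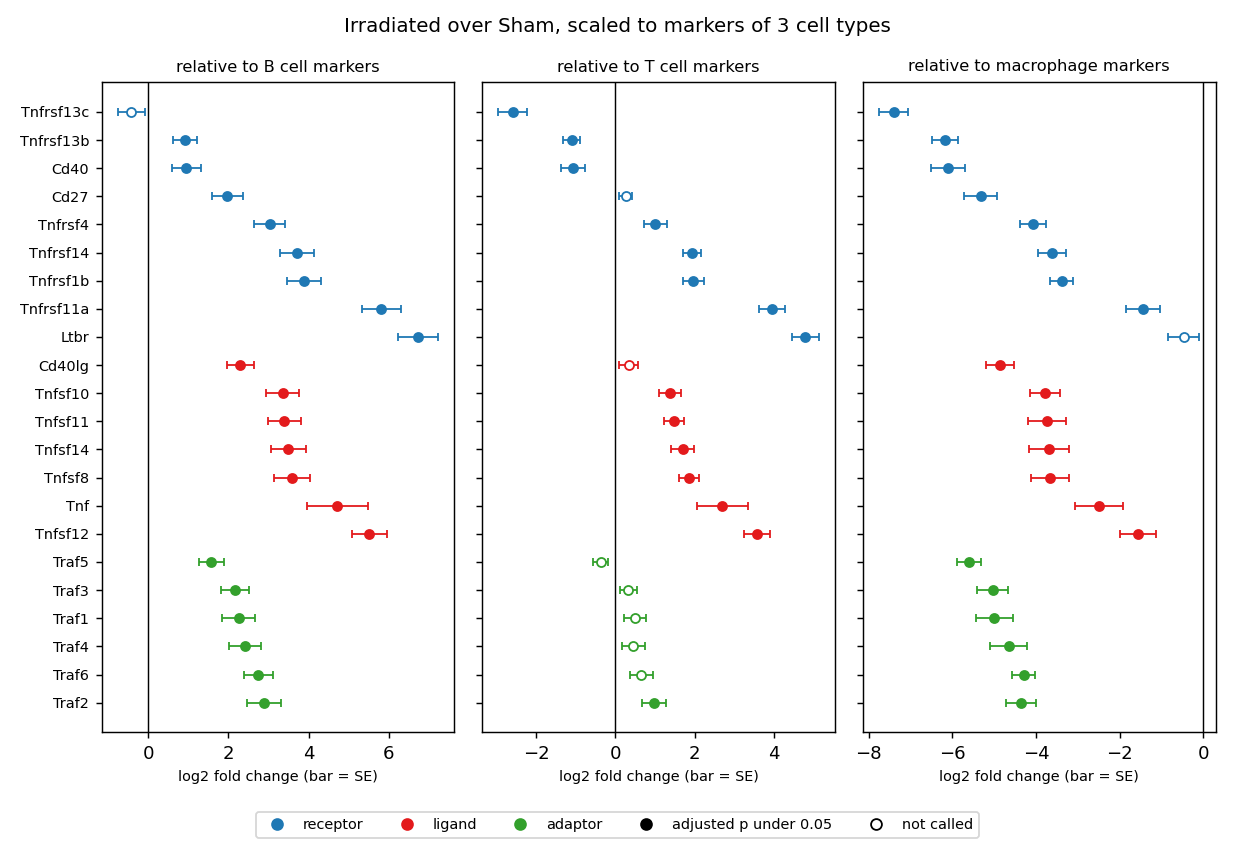
Log2 fold change of irradiated over Sham samples for each tested member, with SE bars, after scaling each sample to the markers of B cells, T cells or macrophages (panels, left to right), with filled points called and open points not. *Tnfrsf13c* is nearest 0 against B cell markers, *Cd27* and 6 others are open against T cell markers, and *Ltbr* is nearest 0 against macrophage markers.

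The ratio of a ligand to its receptor within a sample needs no scaling, and its change from the Sham mean is given as a description with no test. Of 18 known pairs, 10 had both genes in the table and 6 had both tested. Both ligands of LTbR were lower relative to their receptor, although *Tnfsf14* itself was not called. The log2 ratio of *Ltb*, which encodes lymphotoxin beta, to *Ltbr* was lower than the Sham mean by a mean of -5.05 over the 12 irradiated samples, from -5.66 to -4.45. The ratio of *Tnfsf14* to *Ltbr* changed by -3.15 (-4.05 to -1.64). In both pairs every irradiated sample was below every Sham sample, and *Ltbr* itself was higher.

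RANKL against RANK (*Tnfsf11* to *Tnfrsf11a*) changed by -2.46 (-3.20 to -1.58), likewise below all Sham samples. *Cd40lg* to *Cd40* changed the other way, by 1.33 (0.29 to 1.94), since the receptor fell further than its ligand. All 12 irradiated samples exceeded the Sham samples for that pair, the nearest being 0.29 in WBIR+MSC-EVs against 0.27 in Sham. *Tnfsf14* to *Tnfrsf14* changed by -0.24 (-0.90 to 1.36) and *Tnf* to *Tnfrsf1b* by 0.74 (-1.13 to 3.71), both across the Sham range.

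**Figure D4:**
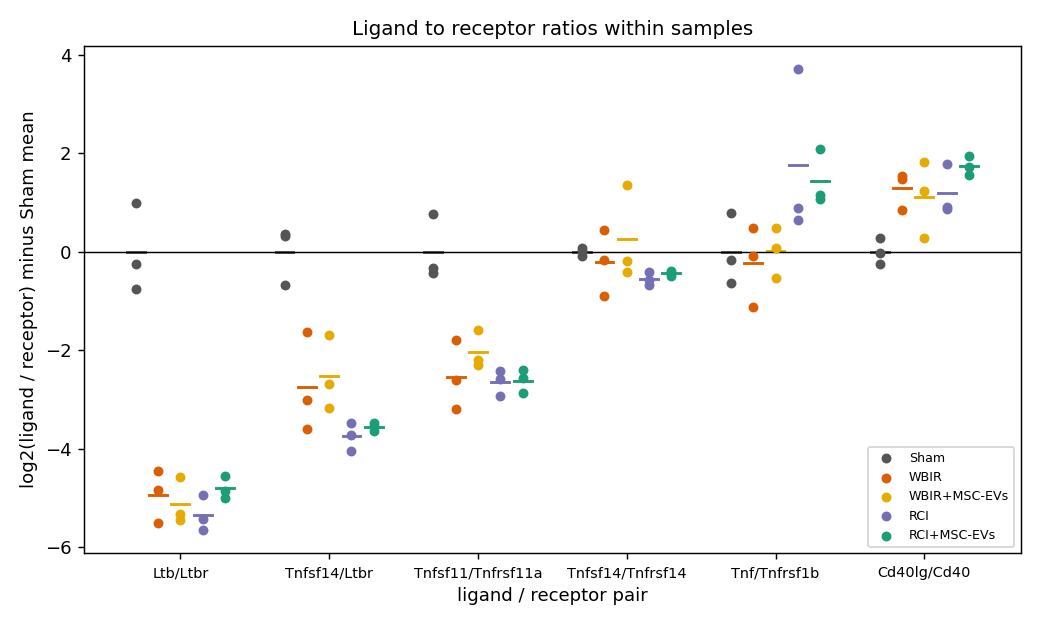
Log2 ratio of ligand to receptor counts in each sample, minus the Sham mean (y axis), for the 6 pairs with both genes tested, by group, with a line at each group mean. *Ltb*/*Ltbr* lies at -5.66 to -4.45 and *Cd40lg*/*Cd40* at 0.29 to 1.94 in irradiated samples.

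The 6 members with a mean under 20 counts were not tested. They were *Tnfrsf17* (BCMA, the plasma cell receptor for BAFF and APRIL), with a mean of 13.7 raw counts, *Tnfrsf8* (CD30) with 7.87, *Tnfrsf9* (4-1BB) with 8.87, *Tnfsf13b* (BAFF itself) with 13.9, *Tnfsf15* (TL1A) with 9.47 and *Tnfsf18* (GITR ligand) with 11.5. *Tnfsf13b* was counted at 12.7, 53.8 and 16.0 in Sham and at 4.45 to 26.9 in irradiated samples, so that the groups overlapped. *Tnfsf18* was counted at 11.8, 5.38 and 8.43 in Sham, at 4.45 to 26.6 over all irradiated samples and at 16.6, 24.0 and 18.7 in RCI+MSC-EVs, which did not overlap with Sham. In the fit with no filter on low counts, edgeR called 0 of these 6 genes in any comparison. The nearest to a call was *Tnfsf18* with burn, averaged over vesicle treatment (1.26 ± 0.35 SE, edgeR adjusted p = 0.0507). Against Sham in RCI+MSC-EVs the values were 1.11 ± 0.48 SE for *Tnfsf18* (edgeR adjusted p = 0.0656) and -1.39 ± 0.66 SE for *Tnfsf13b* (edgeR adjusted p = 0.0873).

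Other genes of the pathway were taken from 3 lists, to be read against the 26.1% of all tested genes that rose and the 48.6% that fell. Of 4 further family ligands and receptors, 3 fell in the irradiated groups and 0 rose, with *Ltb* at -2.37 and *Lta*, lymphotoxin alpha, at -1.52. Of 15 tested NF-kB control genes, 13 fell and 0 rose in the mean of the irradiated groups (median -1.17). The largest falls were *Ikbkb*, an IkB kinase (-1.89), and *Nfkbia*, the inhibitor IkB alpha (-1.75). By group, 13 were lower in WBIR and 13 in WBIR+MSC-EVs (46.9% and 45.1% of all tested genes). In RCI 7 were lower and in RCI+MSC-EVs 8 (43% and 41.3% of all tested genes). The summed scaled counts of this list were 7847 in RCI replicate 3, within the Sham range of 7626 to 11840. Of 10 death signalling genes, 3 rose and 4 fell in the mean of the irradiated groups. These included *Bax*, a pore-forming death protein and p53 target (1.23), *Casp1*, an inflammatory caspase (1.05), and *Casp2*, an apoptotic caspase (-1.96). The furthest fall on that list was of *Bcl6* (-2.02), which encodes a germinal centre transcriptional repressor and not a death protein.

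Vesicle treatment was then compared with no treatment after each injury. No member passed, and no gene of the 426 passed, in WBIR+MSC-EVs against WBIR (0%, smallest edgeR adjusted p among members 0.997), in RCI+MSC-EVs against RCI (0%, 0.989), in the average of both (0%, 0.984) or in the difference between the injuries (0%, 0.998). At an unadjusted threshold of 0.05 the counts of members were 0, 0, 1 and 0, and DESeq2 and limma called 0 members in each. With the replicate number as a block within each injury, edgeR likewise called 0 members and 0 of all tested genes in each. The member with the smallest value in the average was *Tnfrsf4* (0.44 ± 0.19 SE), which was counted at 49.5, 51.2 and 57.4 in WBIR and 48.5, 64.8 and 88.2 with vesicles. In RCI it was counted at 69.0, 61.9 and 55.0, and at 72.0, 97.2 and 92.3 with vesicles. Those RCI groups did not overlap and the WBIR groups did. *Cd40lg* was next (0.42 ± 0.24 SE).

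Groups with and without vesicles did not overlap for 2 members after WBIR and 3 after RCI, all higher with vesicles, where 8.92% and 10.8% of all tested genes were apart. After WBIR these were *Tnfrsf13b* and *Tnfsf11*, and after RCI *Tnfrsf4*, *Traf4* and *Traf6*. The change of *Tnf* with vesicles was 0.33 ± 0.64 SE after WBIR and -0.68 ± 0.59 SE after RCI, and the difference between them was -1.01 ± 0.87 SE.

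The burn was compared between injuries in the same fit, a difference that also holds the anaesthesia, morphine and fluid given with it. RCI against WBIR gave 0 members called (0.704% of all tested genes, smallest edgeR adjusted p among members 0.0951, 2 members at an unadjusted threshold of 0.05), and 5 members were higher without overlap (27% of all tested genes). With DESeq2, *Tnf* (2.26, adjusted p = 0.0118) and *Ltbr* (0.98, adjusted p = 0.0228) passed. Without RCI replicate 3 the value for *Tnf* was 0.97 (edgeR adjusted p = 0.308). Averaged over treatment, RCI and RCI+MSC-EVs against WBIR and WBIR+MSC-EVs gave 2 members higher, *Ltbr* (0.82 ± 0.20 SE) and *Tnf* (1.76 ± 0.44 SE), both at an edgeR adjusted p of 0.0472 (3.05% of all tested genes were called). The split over all tested genes depended on the scaling, with 13 higher and 0 lower here, 10 and 18 with TMM, 8 and 18 with median-of-ratios scaling and 2 and 2 with the 7 least varying reference genes. The median of all tested genes was 0.23 here and 0.04 with TMM. These were also the 2 members whose 6 burned samples were all above the 6 others (9.62% of all tested genes). The fit took the samples as independent, although same-number samples with and without vesicles deviated together within each injury. The SEs of this contrast may therefore be too small. Of the 4 further family genes, *Ltb* was called higher with burn (0.77).

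The burn calls were close to the threshold. *Ltbr* passed in 14 of 26 alternative settings, at 0.57 to 0.89, and *Tnf* in 8 of 26, at 1.11 to 1.95. *Cd27* had a burn effect of 0.82 that was not called. It passed in 3 of 26 settings, among them DESeq2 and leaving out Sham replicate 2. Without RCI replicate 3 the value for *Tnf* was 1.11 (edgeR adjusted p = 0.0561) and that for *Ltbr* 0.84 (edgeR adjusted p = 0.0351). RCI replicate 3 held the highest *Tnf* value, while *Ltbr* was at 388 to 452 in all 3 RCI samples. With burn, 0 of 7 macrophage markers were called (median 0.32, from -0.86 to 1.03). Of the stromal and endothelial markers 0 of 7 were called (median 0.48, from -0.26 to 1.61). Of the T cell markers 0 of 8 were called (median 0.35, from 0.06 to 0.66). Of the NK cell markers 0 of 6 were called (median -1.10, from -1.31 to -0.77). Over all tested genes 3.05% were called. The part of these cell types in the burn result was not tested.

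**Figure D5:**
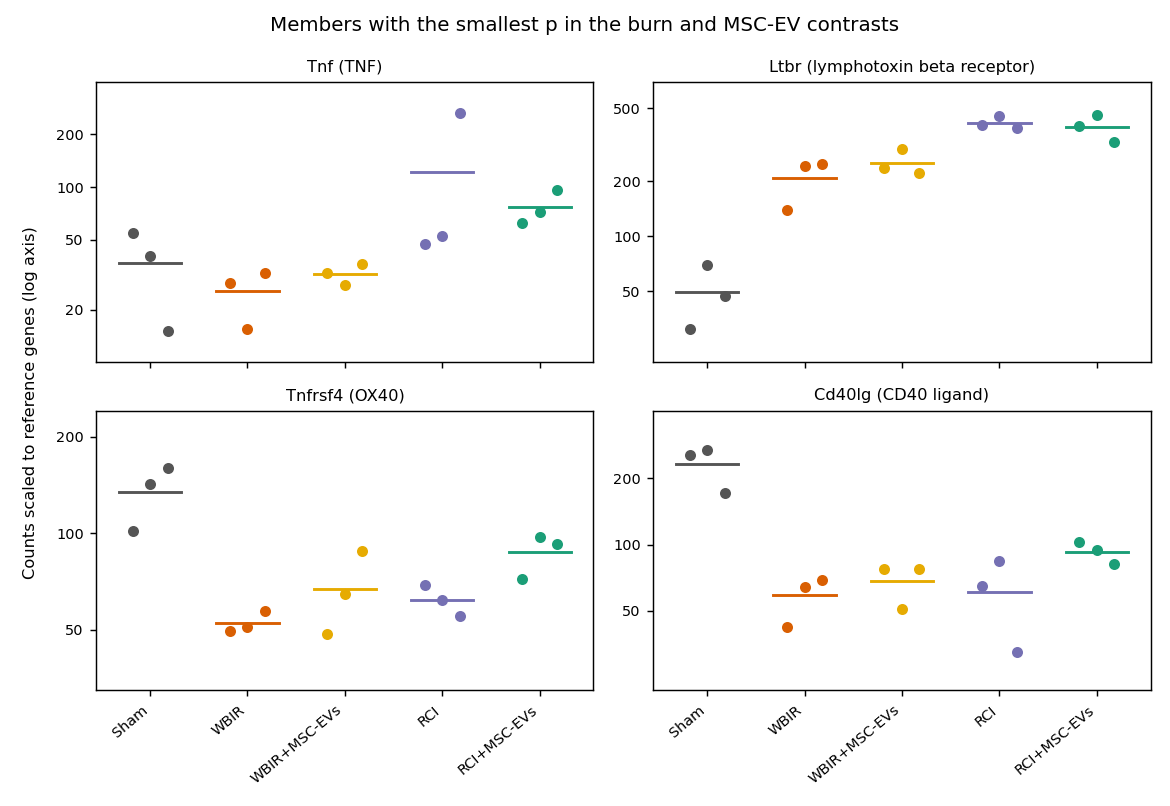
Counts scaled to reference genes (y axis, log scale) of *Tnf*, *Ltbr*, *Tnfrsf4* and *Cd40lg* in each sample by group, with a line at each group mean. *Ltbr* lies at 326 to 462 in burned samples and 139 to 299.7 in irradiated samples without burn, and *Tnf* reaches 264 in RCI replicate 3.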

How the data were processed

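Spleen mRNA was measured on the nCounter panel in 15 samples. The deposited values are raw counts per gene, read from the values, although the authors normalised theirs in nSolver 4.0 after red cell lysis, RNA extraction and hybridisation. Background was not subtracted and the cartridge was not analysed. Columns not mapped to a sample numbered 0.

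Counts were scaled to the geometric mean of 14 reference genes, chosen from knowledge of the panel because the table does not mark them, and fitted in 1 model of 5 groups with edgeR 4.0.16 (glmQLFit, robust, 10 residual degrees of freedom, R 4.3.3), for endogenous genes averaging 20 counts or more. The 14 reference genes moved unequally with irradiation, so another scaling shifts all fold changes together. Relative to their own mean, their log2 changes from Sham ran from -1.78 (*Polr1b*) to 2.89 (*G6pdx*). Between WBIR and RCI they ran from -1.99 (*Tubb5*) to 0.78 (*Alas1*). The fits relative to markers used the geometric mean of each marker list in place of the reference genes. SE is the absolute log2 fold change divided by the square root of F. Tests were two-sided, and the script was tested on simulated data. DESeq2 1.42.0, limma 3.58.1, other scalings, filters, the replicate block and leaving out samples were alternatives. Same-number samples deviated together, every correlation over 0.1, between WBIR and WBIR+MSC-EVs (0.24 to 0.68) and between RCI and RCI+MSC-EVs (0.26 to 0.52). An alternative fit for the vesicle comparisons therefore took the numbers to pair these samples, from the data and not from the labels. The fold changes, SEs and smallest adjusted p given for these comparisons are from the fit without pairing. Other groups were not paired.

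Members and lists were chosen with earlier results of these data known. Genes described in full were members with the 5 largest rises and falls, all TRAF genes, pair members, and those with the 2 smallest p in vesicle and burn comparisons. The biological coefficient of variation was 33.1% and total counts were 90127 to 598872, so low genes were limited by counting error and others by the spread between 3 samples per group.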

Additional observations from a re-analysis of the deposited data

Results flagged for a closer look

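The effect of burn, averaged over vesicle treatment, was tested as the difference between the injuries and passed for 2 members. That difference also holds the anaesthesia, morphine and fluid given with the burn. *Ltbr* was higher with burn by 0.82 on the log2 scale (SE 0.20), and all 6 burned samples exceeded the 6 irradiated samples without burn. *Tnf* was higher by 1.76 (SE 0.44), with 1 sample, RCI replicate 3, at 264 scaled counts against at most 95.8 in the other burned samples. Both had an edgeR adjusted p of 0.0472. The fit did not pair same-number samples, which deviated together within each injury, so these SEs may be too small.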

How the results depend on the processing

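Over 1154 alternative values of single members, 1044 kept their direction and side of the threshold, 74 lost the call, 18 gained it and 18 changed sign. The sign changes lay in 6 results, none of which had passed as reported. With TMM scaling, median-of-ratios scaling, and TMM with Sham replicate 2 left out (chosen after seeing the data), *Tnfrsf14* was 0.24, 0.24 and 0.48, *Tnfrsf1b* 0.33, 0.33 and 0.35, *Tnfsf14* 0.031, 0.027 and 0.28, and *Tnfsf8* 0.19, 0.19 and 0.62. Only *Tnfrsf14* (edgeR adjusted p = 0.0371) and *Tnfsf8* (edgeR adjusted p = 0.0414) passed, in the last setting. On leaving out each replicate, these 4 ranged from -0.67 to 0.21, from -0.40 to 0.080, from -0.84 to 0.010 and from -0.76 to 0.35, *Ltbr* relative to macrophage markers from -0.81 to 0.23, all highest without Sham replicate 2, and *Tnfrsf13c* relative to B cell markers from -0.76 to 0.081, highest without Sham replicate 1. The counts of members called in the 4 comparisons with Sham, in their mean, in the fits relative to markers and in the vesicle comparisons stayed within 1.5 times under every alternative run. The burn effect averaged over treatment gave 1 member with TMM, 1 with median-of-ratios scaling, 1 with limma at a pseudocount of 1 and 1 at 10, and 0 with the 7 least varying reference genes. It gave 0 with both RCI replicate 3 and WBIR+MSC-EVs replicate 1 left out, also chosen after seeing the data. Leaving out each replicate gave 0 to 4 members, with 4 without Sham replicate 2. RCI against WBIR gave 2 members with DESeq2, and 0 to 1 on leaving out each replicate, with 1 without RCI replicate 1. The cause was not tested.

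With the replicate number as a block within each injury, chosen after seeing the data, 0 members passed in the vesicle comparisons, as without it. Over all pairs of groups 11 of 30 same-number correlations were over 0.1, from -0.49 to 0.68. With 1 replicate block over all groups, the burn effect gave 1 member, RCI against Sham 16 and RCI+MSC-EVs against Sham 14. Depth limits the genes with few counts, and in other genes replicates differed by more than counting error.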
